A study of Mus musculus with 3 samples.

Results

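Untreated mouse TAG1 ES cells were compared with TAG1 cells in which a constitutively active Alk4 receptor (Alk4*) had been induced after a period of Smad2/3 inhibition, over all 693 of the 693 miRNAs listed in the processed tables. TAG1 is an ES cell line that carries Alk4* under doxycycline (Dox) control, and every library of the series came from it. The untreated library (Control) came from cells kept in medium with foetal bovine serum (FBS) and LIF. For the second library (Dox), the receptor inhibitor SB-431541, as the labels spell it (SB), was given at 30 µM during 16 hrs, and 1 µg/µl Dox during the next 12 hrs. The inhibited library (SB) had the same 16 hrs of inhibitor and no Dox, and stands beside the comparison only to show where each miRNA had been before induction. Both treated cultures were in medium with Knockout Serum Replacement (KSR) and LIF in place of FBS. Between Control and Dox the medium, the earlier inhibition, doxycycline itself and the induced receptor therefore all differed. Their parts in any difference cannot be told apart. Each condition was 1 library, made by pooling 2 sequencing runs, so no difference below has a replicate check and no p-value is given. TAG1 is 1 line, and the sources used here do not give the feeder status of these cultures or say whether the inhibitor was still present during the Dox step.

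Alk4 is a type I receptor for Activin and Nodal. On activation it phosphorylates Smad2 and Smad3, which enter the nucleus with Smad4 and control transcription, and ES cells make ligands that keep this pathway active. A miRNA is cut from a hairpin in a longer transcript. Each hairpin can give a mature RNA from its 5′ arm (5p) and from its 3′ arm (3p), of which usually 1 is kept in the silencing complex as the guide, and bases 2 to 8 of the guide, the seed, pair with target mRNAs. miRNAs that share a seed form a family, and hairpins that lie close together are often cut from the same transcript.

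The sequences below are those the comparison turned on. They were taken from RefSeq (GRCm38.p6), which held a mature sequence for 544 of the 693 miRNAs, 516 by name and 28 by an older name of the hairpin. Capitals mark the seed. The let-7 members are shown because RNAs with an identical seed took different places against Control.
let-7f-5p: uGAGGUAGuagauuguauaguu
let-7a-5p: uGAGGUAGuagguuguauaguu
let-7g-5p: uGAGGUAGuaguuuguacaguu
let-7b-5p: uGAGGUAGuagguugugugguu
let-7i-5p: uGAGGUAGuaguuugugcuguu
let-7b-5p and let-7g-5p each differed from let-7a-5p at 2 bases, let-7f-5p at 1 base and let-7i-5p at 4 bases, all outside the seed. The miR-181 and miR-99/miR-125 members are shown because copies with a common seed from different chromosomes moved apart.
miR-181d-5p: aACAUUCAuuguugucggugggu
miR-181c-5p: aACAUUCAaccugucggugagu
miR-181a-5p: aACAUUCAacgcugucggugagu
miR-99b-5p: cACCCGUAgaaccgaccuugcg
miR-99a-5p: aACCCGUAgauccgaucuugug
miR-125a-5p: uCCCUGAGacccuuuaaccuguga
miR-125b-5p: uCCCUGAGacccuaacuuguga
The next set is shown because the arms of 1 hairpin differed most, or because the arm that is normally the minor product stood far from its partner.
miR-23a-5p: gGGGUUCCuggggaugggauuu
miR-23a-3p: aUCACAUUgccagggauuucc
miR-182-5p: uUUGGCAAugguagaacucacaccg
miR-182-3p: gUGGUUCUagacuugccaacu
miR-25-5p: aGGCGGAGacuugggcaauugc
miR-25-3p: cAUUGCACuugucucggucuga
The last set holds the most abundant miRNA of both libraries (miR-290-5p), its cluster mate with the same seed and a larger difference (miR-292-5p), and 2 miRNAs far below their Control level (miR-210-3p and miR-3473b).
miR-290-5p: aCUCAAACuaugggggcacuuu
miR-292-5p: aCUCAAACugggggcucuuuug
miR-210-3p: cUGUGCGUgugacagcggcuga
miR-3473b: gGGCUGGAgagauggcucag
On GRCm38.p6, miR-290-5p lies at chr7:3218639-3218660 and miR-292-5p at chr7:3219200-3219221 on the plus strand of the same cluster. miR-181d-5p (chr8:84178759-84178781) and miR-181c-5p (chr8:84178924-84178945) lie on the minus strand. The gene annotation used here places them in introns of Nanos3, while the study lists their transcript as intergenic. miR-23a-5p lies at chr8:84208527-84208548 on the plus strand. miR-99b-5p (chr17:17830194-17830215) and let-7e-5p (chr17:17830366-17830387) lie in introns of Spaca6, miR-99a-5p (chr16:77598940-77598961) lies in an intron of the non-coding gene Mir99ahg, and miR-25-5p (chr5:138165370-138165391) lies within Mcm7. miR-182-3p lies at chr6:30165923-30165943 and miR-210-3p at chr7:141221407-141221428, and miR-3473b (chr10:41670774-41670793) lies opposite to an intron of Ccdc162.

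Levels were in rpm, the reads of a miRNA scaled by the authors to 1000000 reads of its library. Every value was a whole multiple of the value of 1 read within a tolerance of 0.001 reads, which corresponds to 10955686 reads for Control, 11354692 for SB and 9895513 for Dox. Each number is below the total reads that the study reports for that library, and which reads were left out was not tested. Listed miRNAs took 28.3% of these reads in Control, 24.1% in SB and 33.4% in Dox. For this reason the rpm of all miRNAs together was 0.24 higher on the log2 scale in Dox than in Control, and the ratio of the median miRNA was 0.19 on that scale. Under the 4 other scalings tried this median was between -0.05 and 0.03. The calls below are set against 0, and a ratio can also be read against 0.19. Whether the larger miRNA share in Dox was a true rise was not tested. A miRNA was called higher or lower where the rpm ratio was at least 0.32 in size on the log2 scale and the Z-score on reads passed the 2-sided 95% limit, which are the criteria of the study and compare 2 libraries, not conditions. Intervals are exact 95% intervals of the read ratio. They cover counting error only, since reads are not independent molecules. Where levels of different miRNAs are set side by side, differences in ligation between sequences were not removed. All 11 ES cell miRNAs on the marker list were detected, and they summed to 70810 rpm in Control, 56419 in SB and 78487 in Dox, most of it from miR-290-5p and miR-293-3p.

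In Dox, 212 of the 693 miRNAs (30.6%) were higher than in Control, 137 (19.8%) were lower and 344 were not called, so that 349 (50.4%) were called in all. A 2-fold limit left 94 higher (13.6%) and 56 lower (8.08%). The log2 ratios ran from -3.85 to 3.32, with quartiles at -0.42 and 0.71. Among the 158 miRNAs with at least 100 rpm in either library, 76 were higher and 38 lower. The split followed the scaling. The higher miRNAs were 60.7% of those called as deposited, 42.9% when libraries were scaled to reads on listed miRNAs, 45.65% by the median of ratios, 48.6% by TMM and 49.7% after quantile normalization. Under all 5 scalings 144 miRNAs were higher and 136 lower. The counts for families and groups below are to be read against the 30.6% higher and 19.8% lower of all listed miRNAs.

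**Figure D1:**
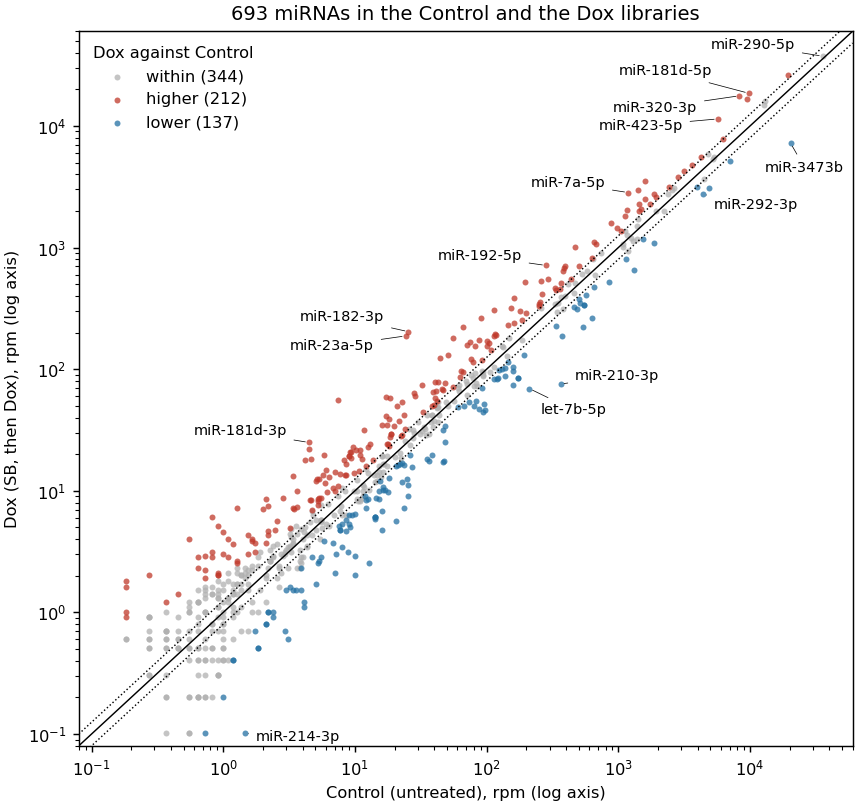
Level of each of the 693 miRNAs in Control (x axis) and Dox (y axis), in rpm on log axes, 1 point per miRNA, with the line of equal levels and dotted lines at the fold limit. Points lie on both sides of the line at every level, and miR-182-3p and miR-23a-5p above it and miR-210-3p and miR-3473b below it stand far from it.

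The largest rpm ratios among miRNAs with at least 100 rpm belonged to minor arms. miR-182-3p was at 25.5 rpm in Control, 24.9 in SB and 203 in Dox, a log2 ratio of 3.00 (95% interval 2.82 to 3.18). miR-23a-5p was at 24.3 rpm in Control, 15.9 in SB and 188 in Dox, a log2 ratio of 2.95 (95% interval 2.76 to 3.14). In each case Control and SB were low and Dox alone was high. The others of the 10 highest were miR-708-3p (1.74), miR-335-5p (1.69), miR-92b-5p (1.55), miR-181c-3p (1.47), miR-877-5p (1.42), miR-92b-3p (1.41), miR-184-3p (1.38) and miR-192-5p (1.34), all higher under every scaling.

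At the other end stood miR-210-3p, a miRNA best known from hypoxia. It was at 364 rpm in Control, 157 in SB and 75.5 in Dox, a log2 ratio of -2.27 (95% interval -2.38 to -2.16). Its 5p arm went the same way at a lower level, with 12.8, 4.14 and 2.53 rpm in the same order. Both arms were below Control in SB and further below it in Dox. let-7b-5p followed at -1.61, then miR-3473b, which was at 20270.0 rpm in Control, 19386 in SB and 7229.7 in Dox, a log2 ratio of -1.49 (95% interval -1.50 to -1.48). miR-3473b was among the most abundant miRNAs of Control and SB, and in Dox it lost more rpm than any other listed miRNA. The remainder of the 10 lowest were miR-329-3p (-1.30), miR-134-5p (-1.27), miR-487b-3p (-1.09), miR-434-3p (-1.01) and miR-494-3p (374.9, 124.3 and 187 rpm) of the imprinted chromosome 12 region, and miR-3096b-5p (-1.05) and miR-3096-5p (-1.04), whose near-identical values cannot be separated.

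To follow the way back to the untreated state, the miRNAs were sorted by where they stood in SB. Against Control, 209 were lower in SB (30.2%) and 106 higher (15.3%). Of these 315 miRNAs, 129 (41%) were not called in Dox against Control and are described as returned, 87 (27.6%) were called on the other side of Control and are described as overshot, and 99 (31.4%) were called on the same side as in SB and are described as having stayed away. Both ratios share the Control library, so a chance deviation of that library alone would count as staying away. Low reads make a return easier to meet, and among miRNAs with a mean of at least 100 reads the numbers were 78 returned, 73 overshot and 66 that stayed away. The 87 overshoots were 61 to above and 26 to below Control. Of the 378 miRNAs that SB had not moved, 121 were higher in Dox, 42 were lower and 215 were not called. Under all 5 scalings 62 miRNAs returned, 57 overshot and 74 stayed away.

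**Figure D2:**
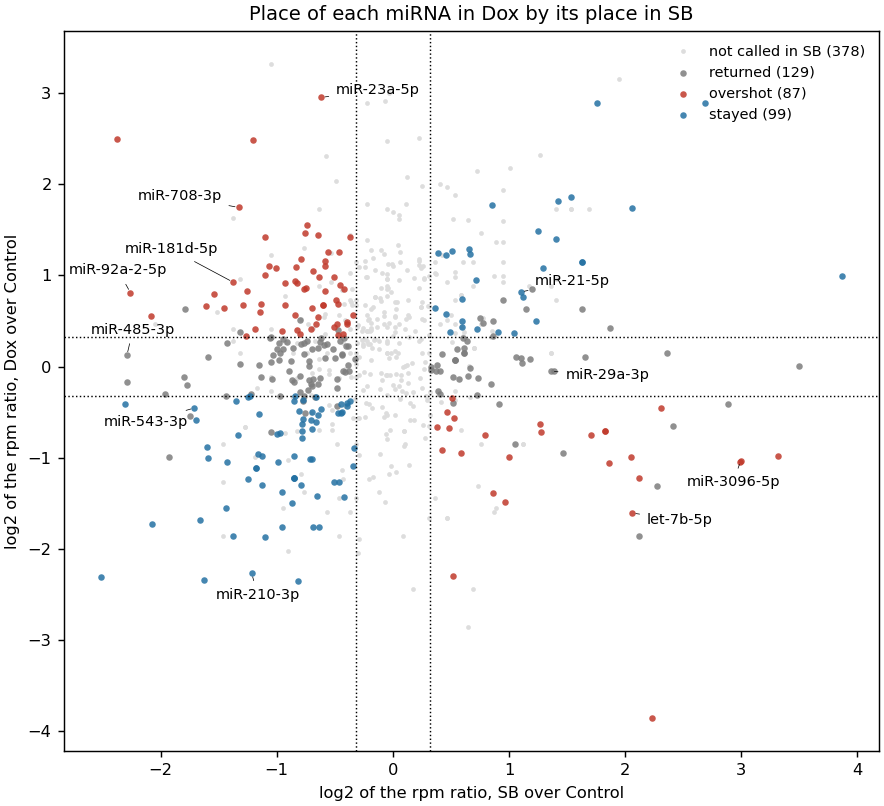
Log2 rpm ratio of SB over Control (x axis) and of Dox over Control (y axis) for the 693 miRNAs, coloured by class, with dotted lines at the fold limit; both axes share the Control library. The 87 that overshot lie in the upper left and lower right, the 99 that stayed away in the lower left and upper right, and returned miRNAs outside the dotted lines are those whose Z-score was below the limit.

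Staying away did not always mean a level like that of SB. Of the 69 miRNAs that stayed below Control, 15 were called higher in Dox than in SB, 41 were not called and 13 were lower still. Of the 30 that stayed above, 6 had come down from SB, 17 were not called and 7 were higher still. In deposited rpm the median log2 ratio of all listed miRNAs was 0.38 in Dox over SB and -0.19 in SB over Control. A level that was flat in rpm from SB to Dox therefore lay below the median change. The split was not repeated under the other scalings. miR-543-3p shows a part return, with 7038, 2152 and 5137 rpm in Control, SB and Dox. miR-376a-3p shows none in rpm, at 1869, 1085 and 1089 in the same order. miR-134-5p, miR-329-3p, miR-487b-3p and miR-210-3p were, among those with 100 rpm or more, the 4 that moved further down.

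The miR-290~miR-295 cluster makes the main miRNAs of mouse ES cells, and the shared seed of some of its 3p guides, among them miR-291a-3p, miR-294-3p and miR-295-3p, is linked to the ES cell cycle. Its 5p arms summed to 46646 rpm in Control, 26834 in SB and 52690 in Dox, and its 3p arms to 35140, 38285 and 41068. The sums thus stood a little above Control in Dox, by 0.18 for the 5p and 0.22 for the 3p arms on the log2 scale, which is close to the median of all miRNAs. Within the cluster the members differed. miR-290-5p, the most abundant miRNA of both libraries, was at 35638 rpm in Control, 18094 in SB and 37406 in Dox, a log2 ratio of 0.07 (95% interval 0.06 to 0.08), and so returned from 0.508 times its Control level. miR-291a-5p also returned (2558, 1934 and 2999 rpm). miR-295-5p overshot, with 1435, 947 and 2296 rpm and a log2 ratio of 0.68, and was called under 4 of the 5 scalings. miR-294-5p stayed below, with 1141, 842 and 809 rpm.

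The arms of miR-292 moved in opposite directions. miR-292-5p was at 1589.9 rpm in Control, 1345 in SB and 3553 in Dox, a log2 ratio of 1.16 (95% interval 1.13 to 1.19). miR-292-3p was at 4387 rpm in Control, 6146 in SB and 2739.7 in Dox, a log2 ratio of -0.68 (95% interval -0.70 to -0.66). The more abundant arm in Control and SB was the 3p arm, and in Dox it was the 5p arm. On the 3p side miR-291a-3p was also below Control (484, 578 and 311 rpm), miR-294-3p was not called as deposited but lower under 3 of the other scalings (4449, 5839 and 3682 rpm), and miR-293-3p (0.44) and miR-295-3p (0.33) were higher, each under the deposited scaling only. The miR-302~miR-367 cluster, of which miR-302b-3p and miR-302d-3p have the seed of miR-294-3p and miR-367-3p that of miR-92a-3p, was low throughout at a sum of 101 rpm in Control, 88.0 in SB and 85.5 in Dox. Of its 9 listed members 5 were lower, under every scaling, and 1 was higher, miR-367-3p with 19 reads in Control and 31 in Dox, not under every scaling. miR-302a-3p, miR-302b-3p, miR-302c-3p and miR-302d-3p were all on the lower side, between -1.38 and -0.56.

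Several abundant families that SB had raised were back at Control. One was the miR-29 family, which targets collagens and other matrix genes. miR-29a-3p was at 1251 rpm in Control, 3212 in SB and 1206 in Dox, a log2 ratio of -0.05 (95% interval -0.09 to -0.02). The ratios of miR-29b-3p and miR-29c-3p were also -0.05, and 0 of the 5 listed members were called as deposited, while 2 were lower when scaled to reads on listed miRNAs and 1 after quantile normalization. miR-221-3p (1085, 1720.1 and 1071 rpm), miR-22-3p (462, 684 and 420.4 rpm) and miR-31-5p (78.2, 246 and 84.0 rpm) went the same way, although miR-22-3p was called lower under 2 of the 5 scalings. miR-221 and miR-222 repress the cell cycle inhibitor Cdkn1b, and 0 of the 4 listed arms of that pair were called. miR-222-5p was past the fold limit at 0.88, on too few reads for a call. In the miR-34/miR-449 family, known as p53 targets, 5 of the 7 members moved in SB returned, 3 from above and 2 from below, beside 41% of all moved miRNAs, and miR-34c-5p stayed above with 503, 1179 and 709 rpm.

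miR-21 did not come back. miR-21-5p was at 1159 rpm in Control, 2486 in SB and 2041 in Dox, a log2 ratio of 0.82 (95% interval 0.78 to 0.85). The 2 listed arms were both higher under every scaling. miR-27a-3p (161, 210.4 and 383 rpm) and miR-99b-5p (179.6, 271 and 299 rpm) also stayed above, and both were higher in Dox than in SB by value, by over the fold limit for miR-27a-3p only. Among the hairpins of miR-199, miR-214, miR-143 and miR-145, known from mesenchymal cells, 8 of the 10 listed members were higher in SB than in Control. Of these 8, 5 overshot to below Control, 2 returned and 1 stayed above, where 26 of all 106 miRNAs higher in SB overshot to below. miR-199a-3p and miR-199b-3p, which have the same sequence and the same values and count once, were at 547 rpm in Control, 1943 in SB and 337 in Dox, a log2 ratio of -0.70 (95% interval -0.76 to -0.64). miR-145-5p was at 25.1, 49.1 and 8.99 rpm in the same order. miR-214-3p had 16 reads in Control, 78 in SB and 1 in Dox, a log2 ratio of -3.85 (95% interval -9.24 to -1.17). Of the 10 listed members 5 were lower under every scaling, which are 4 of 9 when the identical miR-199 3p arms count once. The other side held miR-143-3p, which stayed above at 55.5, 114 and 71.9 rpm, and miR-145-3p, which was higher in Dox at 1.73, 2.03 and 3.74 rpm and 1.11 on the log2 scale.

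The let-7 family, which accumulates as cells leave pluripotency, came back in sum but not member by member. Its 9 mature 5p members summed to 14916 rpm in Control, 27181 in SB and 14572 in Dox. let-7f-5p, the most abundant, was at 5185 rpm in Control, 11217 in SB and 5331 in Dox and returned, as did let-7d-5p (368, 792 and 392.4 rpm) and let-7e-5p (1116, 1734 and 1357 rpm). let-7g-5p stayed above, at 654, 1419 and 1109.8 rpm and a log2 ratio of 0.76 (95% interval 0.72 to 0.81). let-7b-5p overshot to below, at 211, 879.6 and 69.2 rpm and a log2 ratio of -1.61 (95% interval -1.73 to -1.48), and let-7i-5p did the same with 113, 561 and 82.5 rpm. let-7c-5p, which the limits did not call in SB, was at 4847, 6012 and 3077 rpm. let-7a-5p (0.38) was called higher under the deposited scaling only, and miR-98-5p (0.99) rested on 24 reads in Control and 43 in Dox. In all, 3 members were higher, 3 were lower and 3 were not called, and the family median of 0.09 was below 0 under 3 of the 4 other scalings. Members that differ at 1 or 2 bases can exchange reads through sequencing errors, which was not tested.

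**Figure D3:**
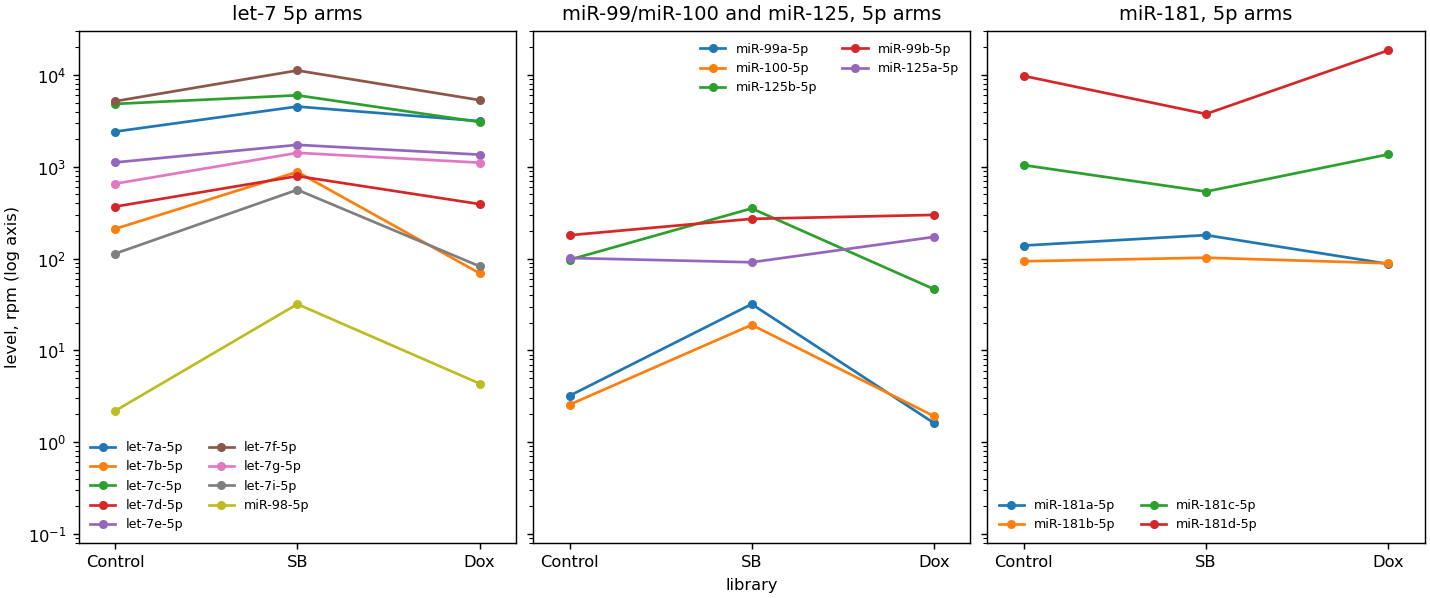
Level in rpm (log axis) of let-7, miR-99/miR-100/miR-125 and miR-181 5p members in Control, SB and Dox, 1 line per miRNA and 1 library per point. Within each family some lines end above and others below their Control level, as let-7g-5p and let-7b-5p, miR-99b-5p and miR-99a-5p, and miR-181d-5p and miR-181a-5p do.

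In several families the direction differed between copies at different places in the genome. The miR-99blet-7emiR-125a group on chromosome 17 had 4 of 6 listed members higher and 0 lower, with a median log2 ratio of 0.64. miR-125a-5p was at 101 rpm in Control, 91.1 in SB and 172 in Dox, and miR-99b-3p at 18.3, 19.0 and 58.1 rpm in the same order. The miR-99/miR-100 and miR-125 members from other chromosomes were lower or not called. miR-351-5p on the X chromosome, which has the miR-125 seed, was higher at 0.68. The let-7 relatives of let-7e went both ways, as given above. miR-125b-5p was at 97.0 rpm in Control, 352 in SB and 46.5 in Dox, a log2 ratio of -1.06 (95% interval -1.22 to -0.90). miR-99a-5p had 35 reads in Control and 16 in Dox (-0.98), and miR-100-5p had 28 and 19 (-0.41, not called). Both had been well above Control in SB, with 362 and 215 reads.

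The miR-181 family, which acts in lymphocyte and muscle differentiation, was divided in the same manner. miR-181d-5p was at 9770.5 rpm in Control, 3763 in SB and 18552 in Dox, a log2 ratio of 0.93 (95% interval 0.91 to 0.94), and was the most abundant of the miRNAs that overshot. miR-181c-5p was at 1042, 537 and 1365 rpm, a log2 ratio of 0.39 that 2 of the 5 scalings called. Their 3p arms were higher too, at 2.48 and 1.47. miR-181a-5p overshot to below, at 139, 180.1 and 87.4 rpm, and miR-181b-5p was at its Control level, at 93.4, 102 and 88.8 rpm. The seed ACAUUCA as a whole summed to 11045, 4583 and 20094 rpm, almost all of it from miR-181d-5p.

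The miR-23amiR-27amiR-24-2 hairpins lie on the same stretch of chromosome 8, on the other strand. Of their 6 listed arms 5 were higher and 0 lower, with a median of 1.27, and all 4 arms of miR-181c and miR-181d were higher, with a median of 1.20. The paralogous miR-23bmiR-27bmiR-24-1 group on chromosome 13 had 3 higher and 0 lower among the 5 arms with a position in the sequence table, and miR-23b-3p, which has none there, was not called at 106, 99.2 and 95.6 rpm. miR-24-3p is made by both groups and was at 262, 322 and 414 rpm. Among the 29 genomic groups with at least 4 listed miRNAs that have a position in the table (neighbours on 1 strand at most 10000 bases apart), the medians ran from -1.37 for a low-level X chromosome group at miR-743 to miR-470 to 1.76 for miR-497~miR-195 on chromosome 11, also at a low level with a sum of 77.8 rpm in Control.

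Several abundant miRNAs were among the 61 that overshot to above. miR-320-3p, which is made without Drosha, was at 8299.6 rpm in Control, 4644 in SB and 17683 in Dox, a log2 ratio of 1.09 (95% interval 1.08 to 1.10). miR-423-5p was at 5683 rpm in Control, 2647 in SB and 11412 in Dox, a log2 ratio of 1.01 (95% interval 0.99 to 1.02). miR-7a-5p, a miRNA of neuroendocrine cells and an inhibitor of EGFR signalling, was at 1186 rpm in Control, 802 in SB and 2832 in Dox, a log2 ratio of 1.26 (95% interval 1.23 to 1.29), and its relative miR-7b-5p had 1.24. miR-320-3p, miR-423-5p and miR-7a-5p were below Control in SB and above it in Dox. The mirtron product miR-877-5p, which is spliced from an intron, did the same at 114, 53.4 and 305 rpm. In the 5p arms that accompany the abundant guides miR-92a-3p and miR-25-3p the overshoot was large. miR-92a-1-5p was at 293.5, 154 and 555 rpm, miR-92a-2-5p at 386, 80.6 and 677 rpm and miR-25-5p at 1416, 706 and 2996 rpm. The guides themselves returned, miR-92a-3p at 5360.1, 3248 and 5573 rpm and miR-25-3p at 12856, 9859 and 14975 rpm. miR-92b, which has the same 3p seed (AUUGCAC) and its own locus on chromosome 3, was higher in both arms, and miR-363-3p with that seed stayed below at 458, 282 and 325 rpm.

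The miR-200 family and miR-141, which repress Zeb1 and Zeb2, had 5 of 9 members higher, 3 of them under every scaling, and 0 lower, with a median of 0.67. miR-200a-3p was at 389.9 rpm in Control, 232 in SB and 709 in Dox and miR-200b-3p at 87.8, 61.8 and 174 rpm in the same order, and both overshot, while miR-200c-3p returned at 132, 75.9 and 156 rpm. In the miR-183/miR-96/miR-182 cluster 5 of 6 were higher, 4 of them under every scaling, and miR-182-5p, the most abundant, was at 872 rpm in Control, 812 in SB and 1588 in Dox, a log2 ratio of 0.86 (95% interval 0.83 to 0.90). The miR-28/miR-151/miR-708 family had 6 of 7 higher under every scaling and a median of 1.08. miR-708-5p was at 258 rpm in Control, 160.0 in SB and 533 in Dox, a log2 ratio of 1.04 (95% interval 0.98 to 1.11). It lies in an intron of Tenm4, and its 3p arm was at 66.4, 26.4 and 222.2 rpm. miR-205-5p, an epithelial miRNA on the marker list, was at 16.2, 13.5 and 19.2 rpm and was not called. The shares of these families were above the 30.6% of all listed miRNAs that were higher, but with lists of 6 to 9 members chosen with earlier results known this is a description.

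A group of miRNAs was at Control in SB and left it only in Dox. miR-192-5p was at 282 rpm in Control, 290.7 in SB and 712 in Dox, a log2 ratio of 1.34 (95% interval 1.28 to 1.40). miR-26b-5p was at 466, 467 and 1002 rpm, a log2 ratio of 1.10 (95% interval 1.06 to 1.15), while miR-26a-5p, the reference of the study's qPCR and a miRNA with the same seed, was at 647, 766 and 798 rpm and was not called. miR-140-3p was at 9537, 9405 and 16761 rpm and was called under 4 of 5 scalings. miR-335-5p (55.5, 55.6 and 179 rpm), miR-184-3p (50.5, 43.2 and 132 rpm) and miR-148b-3p (70.8, 73.8 and 157 rpm) had the same shape. Among the miR-30 5p members 4 of 5 were higher under the deposited scaling, of which miR-30d-5p (0.65) was higher under every scaling, and 2 of the 5 had been moved in SB. miR-30c-5p stayed above (91.4, 129 and 119 rpm), and miR-30b-5p overshot to below at 20.4, 29.1 and 16.1 rpm, lower under every scaling.

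**Figure D4:**
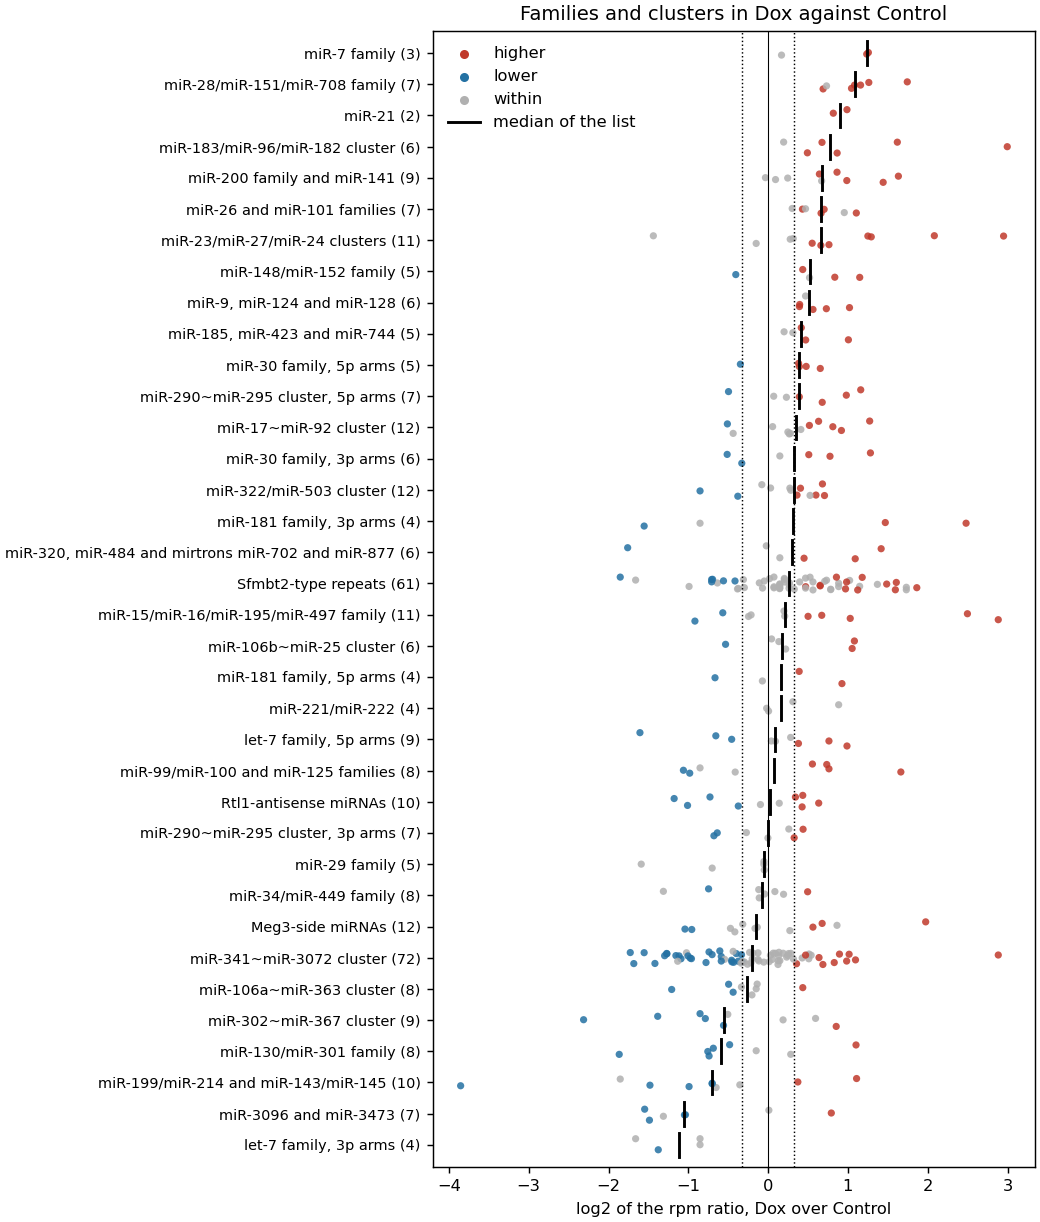
Log2 rpm ratio of Dox over Control for the members of 36 lists, 1 point per miRNA coloured by call, with a bar at the median of each list, the number of listed members in brackets and dotted lines at the fold limit. Lists are ordered by median, from the 3p arms of let-7, miR-3096 and miR-3473 at the bottom to miR-28/miR-151/miR-708 and miR-7 at the top, and many lists hold members on both sides of 0. The let-7 3p list rests on few reads, with 38 in Control and 14 in Dox over its 4 members, of which 1 was called.

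The imprinted cluster on chromosome 12 from miR-341 to miR-3072, expressed from the maternal chromosome, was the longest list, with more members lower than higher. Its 72 listed miRNAs summed to 25459 rpm in Control, 12711 in SB and 21902 in Dox, and 26 were lower, under every scaling, 10 higher and 36 not called, against 19.8% lower and 30.6% higher over all listed miRNAs. The median was -0.21, where that of all miRNAs was 0.19. Of the 52 members moved in SB, 25 returned, 22 stayed away and 5 overshot, where over all moved miRNAs 41% returned, 31.4% stayed away and 27.6% overshot. miR-485-3p returned, at 1380.4 rpm in Control, 282 in SB and 1504 in Dox, and miR-382-5p (1922, 1045 and 2009 rpm), miR-323-3p (1157, 565 and 1264 rpm) and miR-541-5p (2629.9, 1743 and 3089 rpm) returned too. miR-543-3p, the most abundant, stayed below with a log2 ratio of -0.45 (95% interval -0.47 to -0.44), and miR-495-3p (851, 496 and 523 rpm), miR-494-3p (374.9, 124.3 and 187 rpm) and miR-134-5p (633, 458 and 263 rpm) stayed further below. miR-409-3p was on the other side, at 359, 205.4 and 459 rpm, under the deposited scaling only. Among the 3p arms of the cluster 16 of 36 were lower and 4 higher, and among the 5p arms 10 of 36 were lower and 6 higher.

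The miRNAs antisense to Rtl1 in the same region, which are also maternal, had 4 higher and 4 lower of 10 as deposited, and 1 or 2 higher and 4 or 5 lower under the 4 other scalings. miR-127-3p, the most abundant, was at 3129.8 rpm in Control, 2845 in SB and 4228 in Dox, and miR-434-3p, at 1325 rpm in Control, 809 in SB and 658 in Dox, was at -1.01 on the log2 scale. The sum of the 10 was 6372 rpm in Control, 4529 in SB and 6450 in Dox. The 12 miRNAs on the Meg3 side summed to 1174, 678 and 1207 rpm, with 3 higher and 2 lower as deposited and more lower than higher under each of the 4 other scalings. In the miR-130/miR-301 family, outside this region, 5 of 8 members were lower under every scaling and 1 was higher. miR-130b-3p was at 570.0, 326 and 408 rpm and miR-301b-3p at 20.6, 9.60 and 5.66 rpm, while miR-130a-3p returned at 1402, 1025 and 1707 rpm. The Sfmbt2-type repeats, a rodent family of many near-identical hairpins whose reads cannot be assigned with certainty, had 12 of 61 higher and 6 lower. Their 5p arms were higher in 10 of 26, and their 3p arms in 0 of 30, with 5 lower. The list had 17 higher and 13 lower when scaled to reads on listed miRNAs, and 10 higher and 9 or 10 lower under the other 3 scalings. miR-669c-5p, the most abundant of them, was at 1433, 1091 and 1985 rpm, was called higher under the deposited scaling only and had a log2 ratio just below 0 after quantile normalization.

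The 5p arms of miR-3096 and of its neighbour by sequence miR-3096b were far above Control in SB and below it in Dox, while their 3p arms summed to 6.02, 3.52 and 2.12 rpm in Control, SB and Dox. miR-3096-5p was at 173 rpm in Control, 1382 in SB and 84.6 in Dox, a log2 ratio of -1.04 (95% interval -1.15 to -0.92). It was thus 7.97 times its Control level in SB and 0.488 times that level in Dox.

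Arms were compared within 70 hairpins that had at least 100 reads on each arm in Control and Dox, since a ratio of arms does not depend on the scaling of the libraries. In 32 hairpins the 5p arm was higher in Dox relative to the 3p arm, in 20 the 3p arm was higher relative to the 5p arm, and in 18 the interval of the difference held 0. The median size of the difference was 0.50 on the log2 scale, and 10 hairpins differed by over 1. The largest was miR-23a, where the 5p arm took 3.18% of the reads of the hairpin in Control, 1.81% in SB and 17.3% in Dox, a difference of 2.67 (95% interval 2.48 to 2.86). miR-23a-3p itself was at 739, 862 and 895 rpm and was not called.

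In miR-182 the 3p arm gained, and the share of the 5p guide was 97.2% in Control, 97.0% in SB and 88.7% in Dox. In miR-292 the 5p share was 26.6%, 17.95% and 56.5% in the same order, a difference of 1.84 (95% interval 1.81 to 1.87). miR-106b went the other way, with a 5p share of 68.5% in Control, 73.1% in SB and 51.9% in Dox, and miR-25 of the same cluster had 9.92%, 6.68% and 16.7%. The more abundant arm changed in 3 hairpins, miR-292, miR-23b and miR-1306. Arms were called in opposite directions in 10 hairpins, among them miR-292, miR-130b, miR-434, miR-30a, miR-30e and miR-411, in which the 5p arm was higher, and miR-431, miR-20b and miR-542, in which the 3p arm was. Of these 10, miR-292 and miR-130b kept both calls under every scaling, and in the other hairpins the higher arm was not called under every scaling. Both arms were higher in 15 hairpins, such as miR-708 and miR-92b, and both lower in 4. Minor arms did not gain in general, since they rose against the major arm in 36 of 70 hairpins with a median difference of 0.03. In 2 of the 70 pairs an arm matched more than 1 locus of the table.

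**Figure D5:**
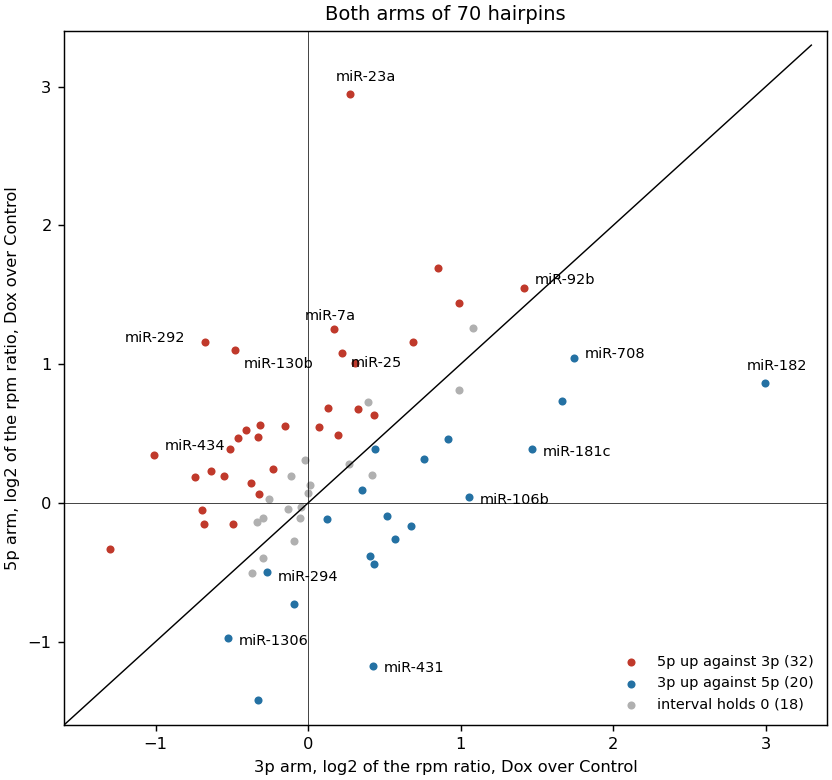
Log2 rpm ratio of Dox over Control for the 3p arm (x axis) and the 5p arm (y axis) of 70 hairpins, with the line of equal ratios. miR-23a and miR-292 lie far above the line and miR-182 and miR-431 far below it, while miR-92b lies close to it.

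Over all listed arms, 110 of 325 5p arms were higher and 54 lower, with a median of 0.25, and 85 of 306 3p arms were higher and 74 lower, with a median of 0.07. The GC content of the mature sequence moved with the ratio. Among 263 miRNAs with a sequence and at least 100 reads in both libraries, 37 of the 66 in the highest GC tertile (55% or more) were higher in Dox (56.1%), 35 of 78 in the middle tertile (44.9%) and 39 of 119 in the lowest tertile (32.8%). The medians were 0.43, 0.28 and 0.07. Across these miRNAs, which share both libraries, Pearson's r of GC content with the log2 ratio was 0.11 and Spearman's rho 0.18. In SB against Control r was -0.27. The part of GC content in any of the ratios above was not tested.

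Of the 11 ES cell miRNAs on the marker list, 3 were higher and 6 lower in Dox than in Control, with a median log2 ratio of -0.56, although their sum was higher. The 3 higher (miR-293-3p, miR-295-3p and miR-367-3p) were not called under every scaling. Markers of other cell types were read in the same libraries. The 16 listed fibroblast miRNAs, the cells that serve as feeders, summed to 6171 rpm in Control, 13611 in SB and 6361 in Dox, with 2 higher, 7 lower and 7 not called in Dox against Control, where the identical miR-199a-3p and miR-199b-3p count as 2. Their single levels ran from 1.46 to 1251 rpm in Control and from 0.101 to 2041 in Dox. The 11 listed miRNAs of other tissues summed to 1896, 1720 and 2535 rpm, of which the neuronal miR-124-3p gave 1736, 1517 and 2278 rpm. Of these 11, 6 were higher and 1 lower, but miR-124-3p was called higher under the deposited scaling only and was at -0.14 on the log2 scale after quantile normalization. The blood miRNAs miR-142-5p (4.47, 2.99 and 22.1 rpm) and miR-150-5p (22.9, 31.4 and 53.6 rpm) were higher, and miR-451 was not called. The muscle miRNA miR-1a-3p was called higher at 39.6, 49.2 and 50.3 rpm, just past the fold limit at 0.35. Also of muscle, miR-133a-3p was near 0 with 4 reads in Control and 3 in Dox, and miR-206-3p was at 4.02, 45.4 and 4.04 rpm. Neither was called. miR-9-5p (0.73) and miR-122-5p (1.74) were higher too, and the 1 lower was miR-375-3p (-0.41). The fibroblast list holds miR-21-5p, miR-29a-3p, miR-125b-5p, miR-143-3p, miR-145-5p, the miR-199 arms, miR-214-3p and miR-221-3p, which are described above, and the part of such cells in their levels was not tested. In libraries of whole cultures, fewer cells of a type and less RNA per cell cannot be told apart.

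The 28 miRNAs that the study selected as responsive were chosen on these libraries for a lower level in SB and a higher one in Dox than in SB, so their direction is not independent evidence. Against Control, 14 of them returned, 11 overshot and 3 stayed below. Their median log2 ratio of 0.22 was 0.04 above that of all listed miRNAs. Among miRNAs with at least 1000 reads in both libraries, those nearest to the fold limit were miR-295-3p (0.33), miR-378-3p (0.33), miR-672-5p (-0.33) and miR-329-5p (-0.33) just outside it, and miR-382-3p (-0.32) and miR-423-3p (0.31) just inside it.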

How the data were processed

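Small RNA of the 20-30 nucleotide fraction was sequenced from 3 cultures of TAG1 ES cells, 1 library each. According to the methods, the authors clipped adaptors (FASTX), kept reads over 16 bases, matched them without mismatches to miRBase release 18 with Bowtie (version 0.12.7 in the submitters' processing notes), pooled 2 runs and kept miRNAs with 10 or more reads. Reads with several matches went to the miRNA of fitting length or were given to every match, and 37 listed miRNAs shared all their values with another. The deposited values are RPM per miRNA, scaled by the authors to the reads of each library. Reads were recovered from the step of the low values.

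Here, ratios of RPM were computed without a pseudocount, and classes and calls as stated in the report, in Python 3.11.15 with pandas 2.3.3 and scipy 1.17.1, tested on simulated data. Alternatives were 4 other scalings, fold limits of 1.5 and 2, a pseudocount of 1 rpm and a minimum of 100 reads. Named were the 10 largest and 10 smallest ratios at 100 rpm or more, the 10 most abundant miRNAs, members of the 36 lists by level and change, arms of the 8 hairpins that differed most, and the miRNAs the study selected. Other named miRNAs, the genomic groups and the split of those that stayed away were chosen after their values were seen. The members and lists were chosen with earlier results of these data known.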

Additional observations from a re-analysis of the deposited data

How the results depend on the processing

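No paired analysis was possible because each condition was 1 library, and no replicate could be left out. Scaling to reads on listed miRNAs gave 238 lower, 154 that stayed away and a median log2 ratio of -0.0488, reversed against 0.188 as deposited. The median was -0.00911 by the median of ratios, 0.0279 by TMM, 0 after quantile normalization and 0.141 with a pseudocount of 1 rpm. A fold limit of 1.5 left 52 that overshot and 60 that stayed away. A fold limit of 2 left 94 higher, 56 lower, 79 returned, 13 that overshot and 24 that stayed away. A mean of 100 or more reads left 141 higher, 89 lower and 78 returned, since fewer miRNAs were compared. Quantile normalization reversed miR-101b-3p (-0.0922), miR-124-3p (-0.136) and miR-669c-5p (-0.0236), and the cause was not tested. The other totals stayed within 1.5 times the values reported. Of 183 named miRNAs, 132 kept their side of the limits under every alternative run. With 1 library a condition, neither the spread between cultures nor the part of the medium or of doxycycline itself could be measured. miRNAs with few reads could be called only at large ratios.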
